A study of Mus musculus with 6 samples.

Results

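The genes described here are 48 mouse genes by which cells take up material from outside, and all 48 were found among the 55487 genes of the deposited count files. They were chosen by name from a list that holds scavenger receptors, receptors and bridging proteins for dying cells, receptors for lipoproteins and sorting, the engulfment machinery, the clathrin coat with its adaptors, the caveolins and the Rab GTPases of endosomes. RNA was sequenced in bulk from cultured cortical microglia, the resident macrophages of the brain, grown from CAG::CreERT2; Nr1d1fl/fl pups at postnatal days 1 to 3. Of the 6 libraries, 3 came from Cre- cultures, which carry the floxed Nr1d1 alleles without the recombinase, and 3 from Cre+ cultures, which carry the CreERT2 recombinase under the broadly active CAG promoter. Both groups were floxed at Nr1d1, the gene of the circadian repressor REV-ERBα, and all 6 cultures received 1.5 μM 4-hydroxytamoxifen (4-OHT), which activates CreERT2, for 2 days. The comparison asks which of these genes differ in RNA level when Nr1d1 is deleted. Loss of Nr1d1 and the presence of an active recombinase therefore changed together between the groups and cannot be told apart here. The labels do not say which cultures shared a litter or preparation, so the p-values measure the spread between these libraries, which may be technical.

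Microglia clear dying cells, debris, protein aggregates and lipoproteins. Large particles are engulfed by phagocytosis, in which surface receptors or soluble bridging proteins recognise the target and Rac GTPases reorganise actin around it. Smaller cargo enters in clathrin-coated pits, which form around adaptor proteins and are cut free by dynamin, or through caveolae, flask-shaped pits built from caveolins, and then passes through early endosomes marked by Rab5 to late endosomes marked by Rab7.

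Counts on genes ran from 87545868 to 93942161 in the Cre- libraries and from 93701215 to 110909129 in the Cre+ libraries. Genes with any count numbered 35166, 32587 and 33634 in Cre- and 30677, 29941 and 30096 in Cre+, so fewer in each Cre+ library. The cause was not tested. Nr1d1 itself was scarce, at 2.35, 1.202 and 1.64 CPM (counts scaled to the library size) in Cre- and 1.00, 0.945 and 1.08 in Cre+ libraries. All Cre+ values were below all Cre- values, and the log2 fold change of -0.77 (SE 0.25) did not pass the test (edgeR quasi-likelihood test, adjusted p = 0.094). These counts cover the whole gene and do not show the floxed exons apart. Of the microglial markers, Trem2 was abundant at a mean of 1614 CPM in Cre- and 1616 CPM in Cre+, and Csf1r at 466 and 462 CPM, with log2 differences of 0.00 (SE 0.04) and -0.01 (SE 0.05). Itgam was called higher in Cre+ (104 against 118 CPM, log2 fold change 0.18, SE 0.05, edgeR adjusted p = 0.046). Cx3cr1 (log2 difference 0.44, SE 0.15, edgeR adjusted p = 0.11) and C1qa (-0.24, SE 0.09, edgeR adjusted p = 0.15) lay in opposite directions without passing. Sall1 and P2ry12 were near 0, at no more than 0.903 and 1.03 CPM. The summed markers of other cells differed widely in level. All 9 fibroblast and mural markers were below 1 CPM in every library, and their sum did not overlap, at 1.89 to 2.83 CPM in Cre- and 0.992 to 1.31 CPM in Cre+. Sums for 7 neuronal markers (2.93 to 3.82 against 2.06 to 2.16 CPM) and 6 markers of monocytes and neutrophils (13.4 to 15.7 against 11.3 to 11.7 CPM) were also lower in Cre+ without overlap. Those of 10 astrocytic (44.6 to 48.5 against 42.8 to 48.7 CPM) and 9 oligodendroglial markers (83.8 to 93.1 against 81.0 to 85.8 CPM) overlapped. So did those of 7 endothelial and 6 dendritic cell markers. Aldoc and Aldh1l1 made up most of the astrocytic sum, and the other 8 were below 1 CPM. Of these only Gfap had a higher mean in Cre+ (0.145 and 0.223 CPM), and the rest, such as Gja1 (0.692 and 0.293 CPM), were lower. Mbp, Cspg4 and Mag made up most of the oligodendroglial sum, and of the rest only Olig2 was not lower in mean. S100a8 (9.64 and 7.29 CPM) and Csf3r (3.28 and 2.49 CPM) made up most of the monocyte and neutrophil sum. Ly6g (0.0225 and 0 CPM) was lower in mean too. Ccr2 (1.39 and 1.46 CPM), Ly6c2 (0.0726 and 0.188 CPM) and S100a9 (0 and 0.00635 CPM) had higher means in Cre+. No gene of that list was called.

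Per kilobase of gene, on the FPKM scale computed with TMM-normalized library sizes, the uptake genes spanned more than 3 orders of magnitude. Of the 48, 44 passed the filter on low values (above 1 CPM in at least 4 libraries), and all 44 in fact exceeded 1 CPM in all 6 libraries. In Cre- libraries their mean FPKM ran from 0.362 for Sorl1 to 1177 for Mfge8, with a median of 12.8. Mfge8 was followed by Anxa1 at 918 FPKM, the receptor chaperone Lrpap1 at 694 FPKM and the fatty acid receptor Cd36 at 532 FPKM. The remaining 4 genes, Cd163, Tyro3, Timd4 and Gulp1, stayed at or below 0.649 CPM.

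**Figure D1:**
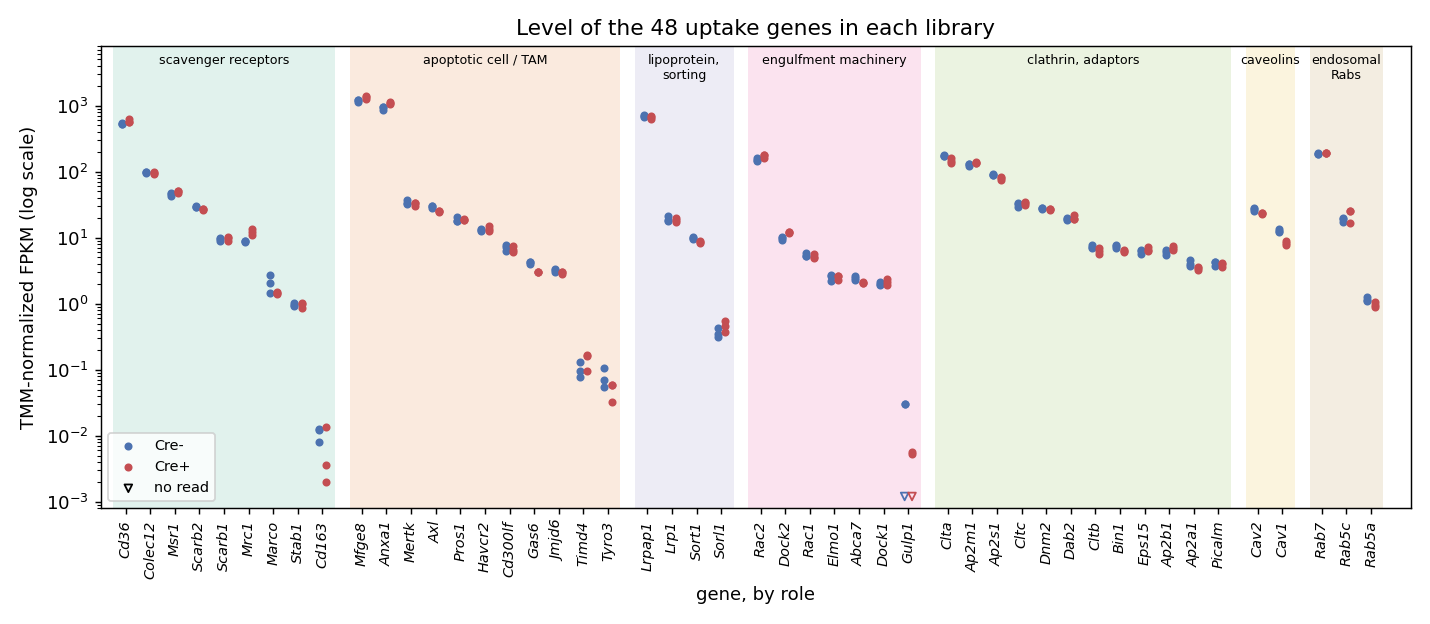
The level of each of the 48 uptake genes in each library, as TMM-normalized FPKM on a log scale, is grouped by role and ordered by level, with Cre- libraries as blue and Cre+ libraries as red points. Open triangles mark libraries with no read, which occurred for Gulp1 only. Mfge8, Anxa1, Lrpap1 and Cd36 sit highest, and Cd163, Tyro3, Timd4 and Gulp1 lie well below the other 44 genes.

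Between Cre+ and Cre- cultures, 9 of the 44 tested uptake genes (20.5%) passed an adjusted p of 0.05, beside 5.07% of all 11429 genes tested. Higher in Cre+ were Mrc1, Anxa1, Mfge8, Dock2 and Rac2, and lower were Cav1, Gas6, Clta and Axl. That is 5 higher and 4 lower, beside 2.50% and 2.56% of all genes. The changes were modest, with log2 fold changes between 0.18 and 0.64 in size. The median over the 44 genes was -0.04, beside 0.00 over all genes, and 18 values lay above 0 and 26 below. In 23 of the 44 (52.3%) the libraries of the groups did not overlap, beside 24.0% of all genes. Standard errors were smaller for the uptake genes, with a median of 0.065 beside 0.104 over all genes. The median size of the log2 fold change was 0.148 beside 0.107. How far the smaller standard errors account for the higher shares was not tested. In bulk RNA, fewer cells of a type and less RNA per cell cannot be told apart. The split by direction moved with the method. DESeq2 called 6 higher and 10 lower, a fit with no filter on low counts 9 higher and 2 lower, and edgeR's filterByExpr filter 7 higher and 3 lower.

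**Figure D2:**
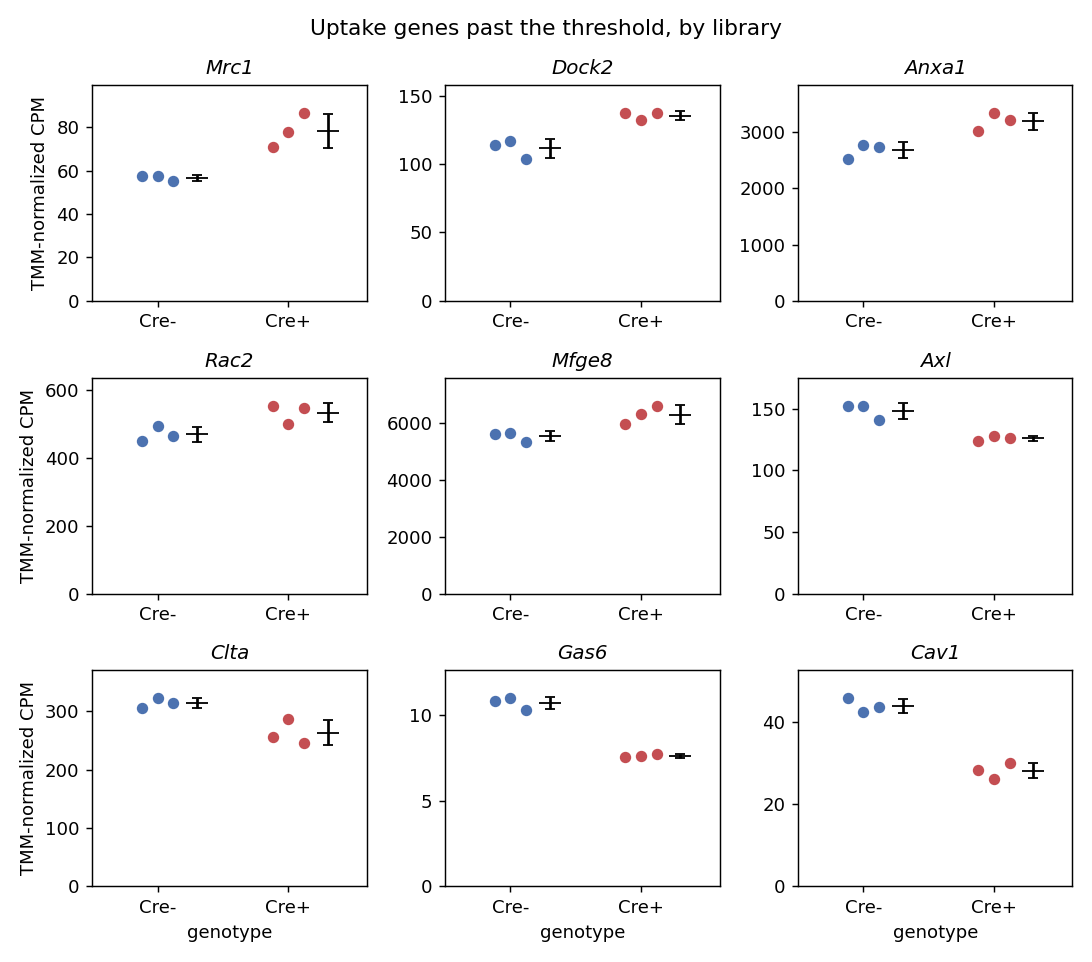
Each panel shows 1 of the 9 uptake genes that passed the test, in TMM-normalized CPM, with 1 point per library, 3 Cre- and 3 Cre+, and the mean with its SD (n = 3). The groups do not overlap in any of the 9 panels, and the widest separation relative to its level is that of Cav1, at 42.6 to 45.8 CPM in Cre- and 26.2 to 30.1 CPM in Cre+.

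The start regions of 5 of the changed genes are shown because REV-ERBα, a DNA-binding repressor, binds the half-site AGGTCA, so that a reader can see whether the letters are there. Each is the strand of the gene, 5′ to 3′, 250 bases before the start and 50 from the start on, from RefSeq on GRCm38.p6, in lower case with the half-site on either strand in capitals. They are Cav1 at chr6:17306085-17306384 (plus strand), Mrc1 at chr2:14229164-14229463 (plus), Axl at chr7:25788684-25788983 (minus), Gas6 at chr8:13494486-13494785 (minus) and Clta at chr4:44004193-44004492 (plus).
Cav1: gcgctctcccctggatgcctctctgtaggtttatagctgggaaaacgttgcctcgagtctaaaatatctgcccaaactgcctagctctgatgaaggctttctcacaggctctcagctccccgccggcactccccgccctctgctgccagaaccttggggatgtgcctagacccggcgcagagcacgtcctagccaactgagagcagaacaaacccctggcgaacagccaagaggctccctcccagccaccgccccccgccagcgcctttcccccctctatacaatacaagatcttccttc
Mrc1: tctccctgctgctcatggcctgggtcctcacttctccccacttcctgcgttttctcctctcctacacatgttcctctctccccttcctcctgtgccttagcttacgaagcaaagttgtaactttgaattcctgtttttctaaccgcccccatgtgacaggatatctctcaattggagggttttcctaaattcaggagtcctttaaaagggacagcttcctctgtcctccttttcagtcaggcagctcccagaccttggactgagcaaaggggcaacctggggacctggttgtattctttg
Axl: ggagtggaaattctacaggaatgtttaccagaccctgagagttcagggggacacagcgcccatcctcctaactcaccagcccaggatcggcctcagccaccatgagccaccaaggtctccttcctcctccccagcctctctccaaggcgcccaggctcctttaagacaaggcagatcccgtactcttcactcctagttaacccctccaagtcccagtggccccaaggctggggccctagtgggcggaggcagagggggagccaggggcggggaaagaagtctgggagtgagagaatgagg
Gas6: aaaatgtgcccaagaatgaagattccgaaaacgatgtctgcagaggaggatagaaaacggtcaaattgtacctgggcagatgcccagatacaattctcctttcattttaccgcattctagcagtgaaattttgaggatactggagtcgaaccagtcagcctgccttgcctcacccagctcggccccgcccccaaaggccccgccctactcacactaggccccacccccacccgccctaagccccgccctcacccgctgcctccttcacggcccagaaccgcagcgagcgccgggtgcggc
Clta: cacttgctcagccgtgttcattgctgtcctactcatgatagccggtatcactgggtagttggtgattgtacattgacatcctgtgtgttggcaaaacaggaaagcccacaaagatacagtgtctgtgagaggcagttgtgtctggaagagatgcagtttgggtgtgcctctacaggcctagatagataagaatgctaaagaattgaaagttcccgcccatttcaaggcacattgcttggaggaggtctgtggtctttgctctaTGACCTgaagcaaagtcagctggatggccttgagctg
Only the Clta window of these 5 holds the half-site, as its complement TGACCT beginning 13 bases after the start, and the other RefSeq window of Clta holds none. Of the 48 genes, 41 had a window in the RefSeq table, 47 windows in all. AGGTCA on either strand was found in 10.6% of these windows, those of Cd36, Clta, Havcr2, Picalm and Timd4, beside 16.3% of all 32851 windows of the same length. RORE, in which A/T-rich bases precede the half-site or its variant with G as the first base, was in 0 of the windows (0.384% of all) and the direct repeat AGGTCANNAGGTCA in 0 (0.00913% of all), both strands searched. The E-box CACGTG was in 8.51%, those of Ap2m1, Picalm, Rab5a and Sorl1, beside 7.15% of all. The direct repeat contains the half-site, RORE may contain it, and a match or its absence describes these letters in this window alone.

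Scavenger receptors bind modified lipoproteins, sugars and debris. Of 9, 8 were tested, and 1 rose and 0 fell (12.5%, beside 5.07% of all genes). Mrc1, the mannose receptor CD206 (chr2:14229392-14332057, plus strand), stood at 57.4, 57.6 and 55.1 CPM in Cre- and at 70.8, 77.9 and 86.6 CPM in Cre+ libraries. Every Cre+ library was above every Cre- library, with means of 56.7 ± 1.37 and 78.4 ± 7.90 CPM (SD, n = 3). The log2 fold change was 0.47 (SE 0.07, 95% interval 0.32 to 0.61, edgeR adjusted p = 6.7e-04), and it stayed between 0.39 and 0.54 when any library was left out. Mrc1 also marks border-associated macrophages. The sum of the 10 markers, Mrc1 among them, overlapped at 174 to 177 CPM in Cre- and 170.2 to 201 CPM in Cre+. Of the other markers on that list, Lyve1 was at no more than 0.212 CPM, and Pf4 (log2 fold change -0.79, SE 0.16, edgeR adjusted p = 0.0096) and Siglec1 (-0.59, SE 0.11, edgeR adjusted p = 0.0056) fell. Ms4a7, the most abundant of the list, was at 90.9 and 88.7 CPM (-0.04, SE 0.07, edgeR adjusted p = 0.85), and Stab1 differed by -0.01 (SE 0.11). The part of such cells in the Mrc1 result was not tested.

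A further 3 scavenger receptors did not overlap between the groups without passing the test. Cd36, which takes up fatty acids and oxidised lipoproteins, was the most abundant scavenger receptor per kilobase. It stood at 1877, 1973 and 1883 CPM in Cre- and 2271, 2036 and 2052 CPM in Cre+, a log2 difference of 0.15 (SE 0.04, edgeR adjusted p = 0.068). Msr1, the class A receptor for modified lipoproteins, was at 267, 296 and 286 against 302, 317 and 320.3 CPM (0.15, SE 0.05, edgeR adjusted p = 0.099). Scarb2, a lysosomal membrane receptor that carries glucocerebrosidase, was at 184, 187 and 185 against 172, 170.3 and 166 CPM (-0.13, SE 0.04, edgeR adjusted p = 0.11). Cd36 and Msr1 were thus higher and Scarb2 lower in each Cre+ library. DESeq2 called Scarb2, edgeR with no filter called Cd36 and Msr1, and edgeR with filterByExpr called Cd36. The other 4 tested receptors overlapped. Marco, which binds bacteria and particles, had a log2 difference of -0.50 (SE 0.20, edgeR adjusted p = 0.19) at a low level of 3.98 ± 1.21 against 2.81 ± 0.109 CPM (SD, n = 3). Scarb1, the receptor for high-density lipoprotein, differed by 0.03 (95% interval -0.10 to 0.17), the clearance receptor Stab1 by -0.01 (-0.25 to 0.22) and the collectin Colec12 by -0.03 (-0.12 to 0.05) on the log2 scale.

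Receptors and bridging proteins for dying cells moved in both directions. Of 11, 9 were tested, and 2 rose and 2 fell (44.4%, beside 5.07% of all genes). The TAM receptors Axl, Mertk and Tyro3 are tyrosine kinases that recognise phosphatidylserine on dying cells through the ligands Gas6 and Pros1. Axl (chr7:25757273-25788705, minus strand) stood at 152, 152 and 141 CPM in Cre- and 124, 128 and 126 CPM in Cre+ libraries. It was lower in every Cre+ library, at 126 ± 2.05 against 148 ± 6.51 CPM (SD, n = 3), a log2 fold change of -0.24 (SE 0.05, 95% interval -0.34 to -0.13, edgeR adjusted p = 0.0095). Axl did not pass the test with no filter (-0.16, adjusted p = 0.20) or with edgeR's filterByExpr filter (-0.19, adjusted p = 0.052).

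Gas6, the ligand of Axl (chr8:13465374-13494490, minus strand), was at 10.8, 10.99 and 10.3 CPM in Cre- and 7.55, 7.62 and 7.76 CPM in Cre+ libraries. The groups lay far apart relative to their spread, 10.7 ± 0.350 against 7.64 ± 0.108 CPM (SD, n = 3), a log2 fold change of -0.49 (SE 0.11, 95% interval -0.71 to -0.26, edgeR adjusted p = 0.013). It lay between -0.52 and -0.47 when any library was left out. The second ligand, Pros1, differed by -0.01 (95% interval -0.14 to 0.13) at 76.7 ± 7.02 and 76.3 ± 0.763 CPM (SD, n = 3), and Mertk by -0.07 (-0.19 to 0.06) at 148 ± 10.2 and 141 ± 9.22 CPM (SD, n = 3). Within libraries, Gas6 counts were 0.140 ± 0.00946 of the Pros1 counts in Cre- and 0.1001 ± 0.000591 in Cre+ (SD, n = 3), without overlap (two-sided exact permutation p = 0.1, the smallest that 3 against 3 allows, and 0.175 adjusted over 7 ratios chosen after values were seen). The ratio of Axl to Mertk counts overlapped, at 1.00 ± 0.0531 and 0.895 ± 0.0733 (exact permutation p = 0.2, adjusted 0.233). Summed fibroblast and mural markers were lower in Cre+ as well, as given above, and their part in the Axl and Gas6 results was not tested.

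Mfge8, the secreted bridge from phosphatidylserine to integrins (chr7:79133768-79149060, minus strand), was the most abundant uptake gene per kilobase. It stood at 5607, 5648 and 5326 CPM in Cre- and 5931, 6289 and 6586 CPM in Cre+ libraries. All Cre+ values exceeded all Cre- values, with a log2 fold change of 0.18 (SE 0.04, 95% interval 0.09 to 0.27, edgeR adjusted p = 0.017). That call was lost without Cre- replicate 3 (0.15, adjusted p = 0.094), Cre+ replicate 2 (0.18, 0.057) or Cre+ replicate 3 (0.14, 0.079). Anxa1, a phosphatidylserine-binding annexin released during resolution of inflammation (chr19:20373428-20390944, minus strand), was at 2510.3, 2774 and 2735 CPM in Cre- and 3021, 3334 and 3206 CPM in Cre+. It was higher in each Cre+ library, with a log2 fold change of 0.25 (SE 0.05, 95% interval 0.16 to 0.35, edgeR adjusted p = 0.0037), and was called when any library was left out. The other 3 tested genes overlapped, namely Jmjd6, a nuclear hydroxylase once described as a phosphatidylserine receptor (log2 difference -0.11, 95% interval -0.31 to 0.08), Havcr2, the phosphatidylserine receptor TIM-3 (0.09, -0.07 to 0.25), and Cd300lf, an inhibitory lipid receptor (-0.08, -0.27 to 0.11). Cd300lf shares 95.3% identity over 342 bases with Cd300ld, which holds 123010 counts over the 6 libraries against 20270 on Cd300lf, so its value is uncertain.

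Of the lipoprotein and sorting receptors, 4 were tested and 0 passed the edgeR test, beside 5.07% of all genes. An unadjusted edgeR p of at most 0.05 was found for 1, beside 19.1% of all genes. The same gene, Sort1, was called by DESeq2 and not by limma. Lrpap1, the chaperone of LRP1, was the most abundant of them at 2799, 2934 and 2832 CPM in Cre- and 2619.9, 2740.3 and 2902 CPM in Cre+, overlapping, with a log2 difference of -0.05 (95% interval -0.14 to 0.04). Sort1, the sorting receptor sortilin, was closest to the threshold. It was at 78.4, 71.0 and 74.8 CPM in Cre- and 67.7, 64.0 and 63.0 CPM in Cre+, without overlap (-0.20, SE 0.06, edgeR adjusted p = 0.053). Lrp1, the large receptor for apolipoprotein E, differed by -0.06 (95% interval -0.20 to 0.08). Sorl1, which sorts the amyloid precursor protein, differed by 0.34 (-0.02 to 0.70) at 4.10 ± 0.624 and 5.19 ± 0.977 CPM (SD, n = 3).

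The engulfment machinery links receptors to actin. Of 7 genes, 6 were tested, and 2 rose and 0 fell (33.3%, beside 5.07% of all genes). Dock2, the Rac activator of blood cells (chr11:34226815-34783892, minus strand), was at 114, 117 and 104 CPM in Cre- and 137, 132 and 137 CPM in Cre+ libraries. It was higher in every Cre+ library, 135 ± 2.97 against 111 ± 7.09 CPM (SD, n = 3), with a log2 fold change of 0.28 (SE 0.05, 95% interval 0.17 to 0.39, edgeR adjusted p = 0.0056), and was called when any library was left out. Its broadly expressed relative Dock1 differed by 0.08 (95% interval -0.12 to 0.27) and their shared partner Elmo1 by -0.02 (-0.20 to 0.16). The ratio of Dock2 to Dock1 counts overlapped between the groups (exact permutation p = 0.2, adjusted 0.233).

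Rac2, the Rac GTPase of blood cells (chr15:78559167-78572783, minus strand), was the most abundant of this machinery per kilobase. It stood at 449.5, 494 and 465 CPM in Cre- and 553, 499.8 and 545 CPM in Cre+ libraries. The gap between the nearest libraries was small, 494 against 499.8 CPM, and the log2 fold change was 0.18 (SE 0.05, 95% interval 0.08 to 0.29, edgeR adjusted p = 0.043). Rac2 no longer passed without Cre- replicate 1 (0.14, adjusted p = 0.17), Cre- replicate 3 (0.17, 0.14), Cre+ replicate 1 (0.16, 0.15) or Cre+ replicate 3 (0.17, 0.15), nor with DESeq2's size factors in the edgeR test (0.18, 0.055). Abca7, a lipid transporter linked to phagocytosis, was at 17.9, 16.5 and 15.6 against 13.7, 14.4 and 13.9 CPM, lower in each Cre+ library without passing the test (-0.26, SE 0.09, edgeR adjusted p = 0.12). Rac1, the ubiquitous Rac GTPase, differed by -0.07 (95% interval -0.25 to 0.10). Of the 4496 exonic bases of Rac1, 51.4% also lie in exons of Daglb on the opposite strand, and the library kit does not mark strand, so reads of these genes cannot be told apart there. Daglb held 241069 counts over the 6 libraries against 13633 on Rac1, so the level of Rac1 beside that of Rac2 is uncertain.

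Clathrin-mediated uptake was represented by 12 genes, all tested, of which 0 rose and 1 fell (8.33%, beside 5.07% of all genes). The groups did not overlap for 7 of them (58.3%, beside 24.0% of all genes). Clta, the light chain A of clathrin (chr4:44004452-44032846, plus strand), was the most abundant of them per kilobase. It was at 306, 322 and 315 CPM in Cre- and 256, 287 and 246 CPM in Cre+ libraries. Each Cre+ library was below each Cre- library, 263 ± 21.2 against 314 ± 8.002 CPM (SD, n = 3), with a log2 fold change of -0.26 (SE 0.05, 95% interval -0.37 to -0.14, edgeR adjusted p = 0.011). That call was lost without Cre- replicate 2 (-0.24, adjusted p = 0.051), without Cre+ replicate 3 (-0.21, 0.060) and with no filter (-0.18, 0.071). The heavy chain Cltc, the backbone of the coat, differed by 0.05 (95% interval -0.06 to 0.17). Clta counts were 1.17 ± 0.0975 times the Cltc counts in Cre- and 0.940 ± 0.111 times in Cre+ libraries (SD, n = 3), without overlap (exact permutation p = 0.1, adjusted 0.175), whereas the ratio of Clta to Cltb, the light chain B, overlapped (exact permutation p = 0.9).

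A further 5 clathrin genes were separated between the groups with unadjusted p-values under 0.05 but did not pass the adjusted test, and DESeq2 called 4 of them, Cltb, Ap2s1, Ap2b1 and Bin1. Cltb was at 34.4, 35.5 and 38.3 CPM in Cre- and 27.8, 33.6 and 30.4 CPM in Cre+ (-0.24, SE 0.08, edgeR adjusted p = 0.099). Subunits of AP-2, the adaptor that joins cargo to clathrin, were among them. Ap2s1 was at 131, 129 and 135 against 117, 124 and 110.3 CPM (-0.17, SE 0.05, edgeR adjusted p = 0.072). Ap2a1 was at 17.4, 19.7 and 15.96 against 15.2, 13.8 and 14.7 CPM (-0.28, SE 0.10, edgeR adjusted p = 0.12), with 16.7% of its exonic bases shared with Fuz on the opposite strand. The subunit Ap2b1 lay the other way, at 56.8, 52.2 and 48.4 against 57.8, 60.5 and 64.7 CPM (0.22, SE 0.07, edgeR adjusted p = 0.081). Bin1, which bends membranes, was at 28.5, 30.3 and 32.2 against 24.6, 26.8 and 26.1 CPM (-0.23, SE 0.07, edgeR adjusted p = 0.088). The AP-2 subunit Ap2m1 did not overlap either, with a log2 difference of 0.09 (SE 0.04, edgeR adjusted p = 0.29). Ap2a2, an AP-2 subunit outside the 48 genes, overlapped at 47.8 and 47.1 CPM (-0.02, SE 0.06, edgeR adjusted p = 0.90). It was more abundant than Ap2a1. The subunits of this single complex thus lay on both sides of 0. The other 4, the adaptors Dab2, Picalm and Eps15 and the scission GTPase Dnm2, overlapped, with log2 differences from -0.07 to 0.12.

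Of the 2 caveolins, 0 rose and 1 fell, with the largest log2 fold change in size among the 44 tested uptake genes. Cav1, the main structural protein of caveolae (chr6:17306335-17341452, plus strand), was at 45.8, 42.6 and 43.7 CPM in Cre- and 28.4, 26.2 and 30.1 CPM in Cre+ libraries. Each Cre+ library was well below each Cre- library, with means of 28.2 ± 1.94 and 44.0 ± 1.64 CPM (SD, n = 3), a fold of 0.641. The log2 fold change was -0.64 (SE 0.07, 95% interval -0.79 to -0.49, edgeR adjusted p = 3.9e-05), and between -0.69 and -0.59 when any library was left out. Cav2, its partner, ends 17219 bases before Cav1 on the same strand (chr6:17281185-17289115). It was at 83.4, 93.4 and 88.9 CPM in Cre- and 78.4, 76.9 and 79.6 CPM in Cre+, without overlap and without passing the test (-0.18, SE 0.05, edgeR adjusted p = 0.077). DESeq2 called Cav2 lower, as did the edgeR fit without Cre- replicate 1. Within libraries, Cav1 counts were 0.499 ± 0.0472 of the Cav2 counts in Cre- and 0.360 ± 0.0186 in Cre+ (SD, n = 3), without overlap (exact permutation p = 0.1, adjusted 0.175). Endothelial cells and fibroblasts are rich in caveolins. The summed endothelial markers overlapped at 46.2 to 51.0 and 47.1 to 51.4 CPM, but their abundant members differed in direction. Flt1 rose from 20.1 to 25.2 CPM (log2 fold change 0.33, SE 0.08, edgeR adjusted p = 0.025), and Vwf stood at 26.8 and 22.5 CPM (-0.26, SE 0.08, edgeR adjusted p = 0.072). Flt1 was the only endothelial marker with a higher mean in Cre+. Kdr (1.22 and 0.958 CPM), Pecam1 (0.477 and 0.271 CPM), Cdh5 (0.146 and 0.0528 CPM) and Tek (0.109 and 0.0477 CPM) were scarce and lower in mean. Cldn5 was lower too, at no more than 0.0460 CPM. The fibroblast and mural sum was lower in Cre+ by values given above, all under 3 CPM. The part of such cells in the Cav1 result was not tested.

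Of the endosomal Rabs, 3 were tested and 0 called by edgeR, DESeq2 or limma, with 0 at an unadjusted p of at most 0.05. Of all genes, edgeR called 5.07%, and 19.1% had an unadjusted edgeR p of at most 0.05. Rab7 of late endosomes was the most abundant per kilobase and differed least, at 480.5, 487 and 494 CPM in Cre- and 499.7, 496 and 500.3 CPM in Cre+, without overlap (0.03, 95% interval -0.05 to 0.12). Rab5a of early endosomes was at 5.70, 6.60 and 6.003 against 4.64, 5.55 and 5.02 CPM, without overlap (-0.27, SE 0.13, edgeR adjusted p = 0.29). Its paralog Rab5c was at 37.4, 41.6 and 43.7 against 36.1, 55.3 and 55.0 CPM. A single library, Cre+ replicate 1, was low for Rab5c. With it the log2 difference was 0.25 (SE 0.12, edgeR adjusted p = 0.27), and without it 0.43 (adjusted p = 0.0044).

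**Figure D3:**
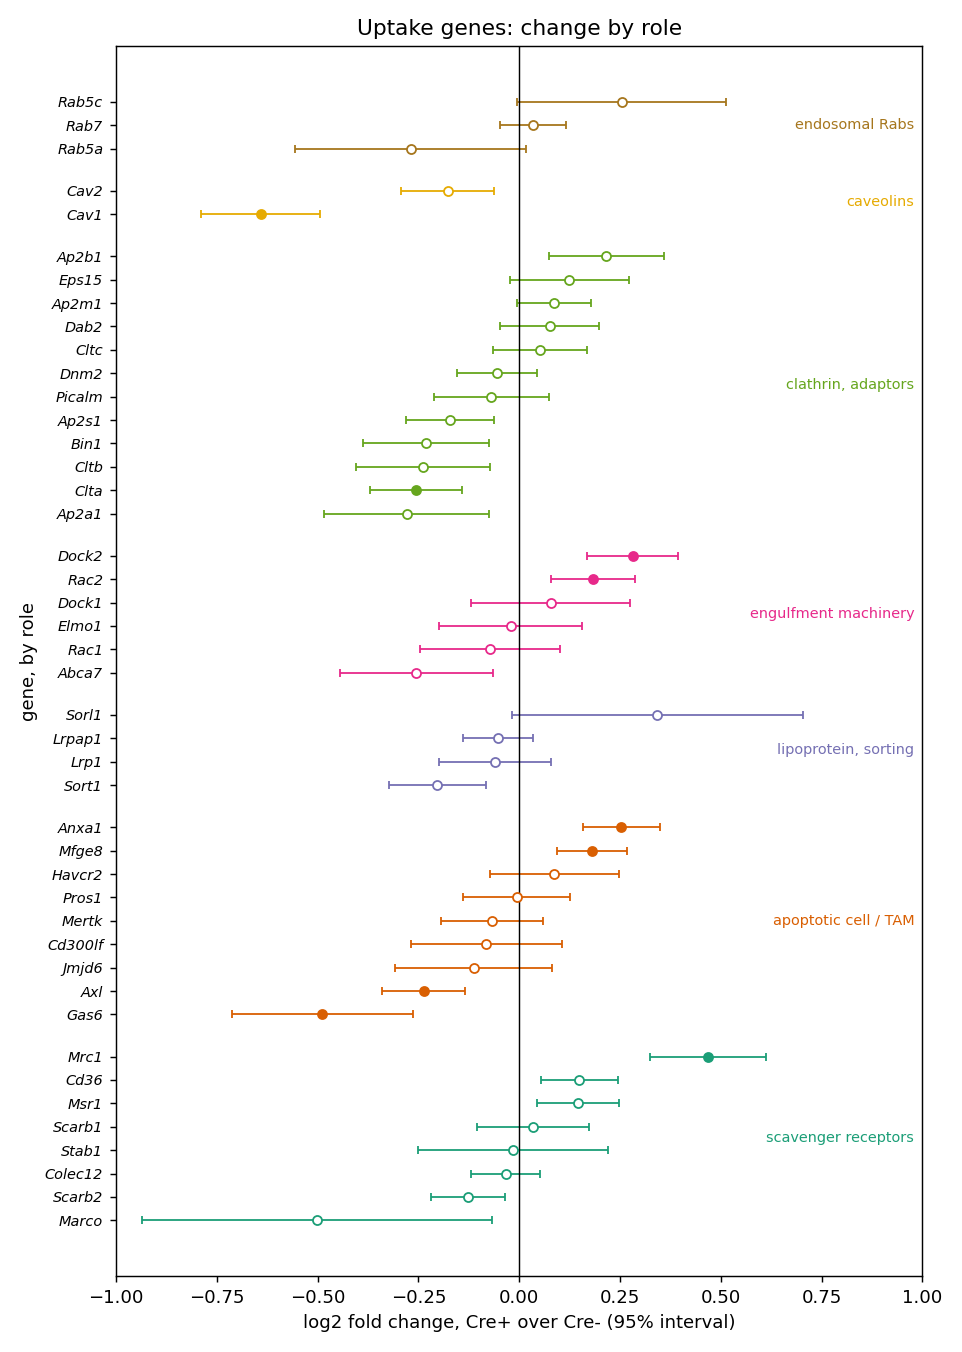
The log2 fold change (Cre+ over Cre-) of each tested uptake gene is drawn by role, with its 95% interval, and filled points mark the 9 genes with an edgeR adjusted p of at most 0.05. Cav1 at -0.64 and Mrc1 at 0.47 lie at the ends of the called genes, and clathrin genes lie on both sides of 0. Of the 4 tested TAM receptors and ligands, Axl and Gas6 lie below 0, and the intervals of Mertk and Pros1 include 0.

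Cd163, the haemoglobin scavenger receptor, had 6, 4 and 6 counts in Cre- and 8, 1 and 2 in Cre+ libraries. Tyro3 had 37, 61 and 30 against 40, 19 and 36 counts, and the phosphatidylserine receptor Timd4 had 18, 26 and 15 against 38, 19 and 36. Gulp1, an engulfment adaptor, had 10, 0 and 10 against 0, 2 and 2 counts, where a count of 0 allows up to 3. The groups overlapped in all 4, and no difference was detectable at these counts (exact permutation p from 0.3 to 0.4, adjusted 0.4).

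**Figure D4:**
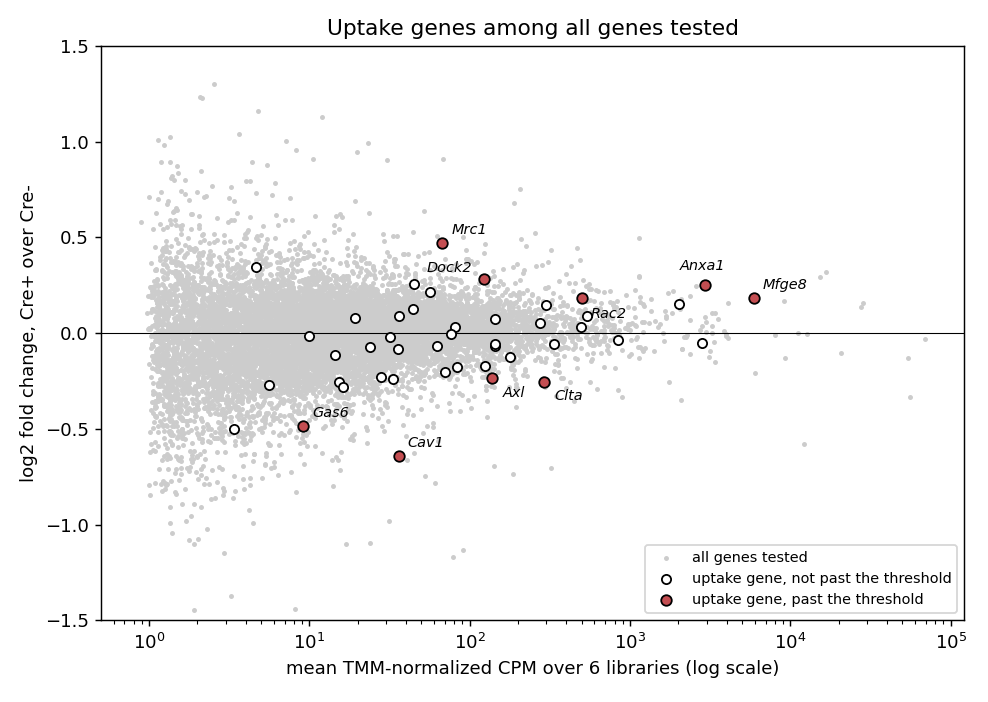
The log2 fold change (Cre+ over Cre-) of each tested gene is plotted against its mean level in TMM-normalized CPM on a log scale, with all 11429 genes in grey, the 44 uptake genes as open circles and the 9 that passed the test in red. Called uptake genes occur across the range of level, from Gas6 near 10 CPM to Mfge8, and 16 genes lie outside the limits of 1.5 on the log2 axis.

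A wider list of 199 other genes of phagocytosis and endocytosis was read in the same fit. Of these, 161 were tested and 12 passed (7.45%, beside 5.07% of all genes), 6 in each direction, and the median log2 fold change was 0.01. With no filter 18 were higher and 6 lower, with filterByExpr 11 and 4, and with DESeq2 11 and 14. The count fell to 6 without Cre- replicate 3 and to 5 without Cre+ replicate 3. Among 15 other engulfment receptors and bridging proteins, 3 rose and 2 fell (33.3%, beside 5.07% of all genes). Anxa5, an annexin that binds phosphatidylserine as Anxa1 does, rose from 1702 ± 25.9 to 1980.5 ± 29.5 CPM (SD, n = 3; log2 fold change 0.22, SE 0.04, edgeR adjusted p = 0.0016). The activating receptors Cd300ld (0.31, SE 0.05, edgeR adjusted p = 0.0024) and Cd300lb (0.19, SE 0.04, edgeR adjusted p = 0.020) rose, and Cd47, the signal against engulfment (-0.20, SE 0.05, edgeR adjusted p = 0.022), and the integrin subunit Itgb5 (-0.22, SE 0.06, edgeR adjusted p = 0.043) fell. Of 10 other scavenger receptors 1 was called (10.0%, beside 5.07% of all genes). It was Cxcl16, a chemokine whose membrane form takes up oxidised lipoproteins, which fell from 60.4 ± 3.85 to 42.1 ± 1.91 CPM (SD, n = 3; -0.52, SE 0.06, edgeR adjusted p = 1.7e-04).

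Among 43 genes of phagocytic signalling and actin, 4 passed (9.30%, beside 5.07% of all genes). Actr2 of the Arp2/3 complex (0.23, SE 0.04, edgeR adjusted p = 0.0052) and Cyfip1 of the WAVE complex (0.28, SE 0.07, edgeR adjusted p = 0.042) rose. Dock4, a further relative of Dock2 (-0.82, SE 0.18, edgeR adjusted p = 0.014), and the small GTPase Rhog (-0.19, SE 0.05, edgeR adjusted p = 0.036) fell. Dock4 was at a low level, 5.50, 3.84 and 3.90 CPM in Cre- and 2.41, 2.44 and 2.63 CPM in Cre+. Of 28 other clathrin-associated genes 1 fell (3.57%), the adaptor epsin Epn1 (-0.43, SE 0.11, edgeR adjusted p = 0.031). Of 55 endosomal sorting genes 1 rose (1.82%), Rab8b (0.26, SE 0.06, edgeR adjusted p = 0.017). Both shares lay below the 5.07% of all genes. None of 10 other genes of caveolae and clathrin-independent uptake passed the edgeR test. An unadjusted edgeR p of at most 0.05 was found for 2 of them, beside 19.1% of all genes. DESeq2 called 1, Ehd1, lower in Cre+.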

How the data were processed

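RNA of 6 cultures was sequenced after conversion with a SMARTer kit. The counts, as deposited, are whole reads per Ensembl gene, produced by the authors on GRCm38 by STAR alignment and featureCounts (versions 2.7.9a and 2.0.3 in the submitters' processing notes), without normalization. The CPM values deposited by the authors are counts divided by the library total, and the FPKM values deposited by the authors also divide by gene length. Both were read only to check their unit. The labels give 2 days of 4-OHT. All 48 genes matched GENCODE M21 with the same coordinates, as did 54907 of the 55487 genes in start and end.

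After removal of 356 rRNA genes, those exceeding 1 CPM in 4 or more libraries entered the quasi-likelihood test of edgeR 4.0.16 in R 4.3.3, with TMM normalization, no covariates and Benjamini-Hochberg adjustment over all 11429 genes, at 0.05. The coefficient of variation between cultures was 10.0%. Differences between libraries exceeded counting noise, with a chi-square per degree of freedom of 18.8 to 25.8 within groups. Standard errors are the log2 fold change over the root of F. Single values used two-sided exact permutation tests. The scripts were tested on simulated data. Similar sequences were searched with blastn 2.17.0. Alternatives were DESeq2 1.42.0, its size factors, library totals, voomWithQualityWeights of limma 3.58.1, other filters, ribosomal genes kept, the replicate number as a block, and leaving out each library.

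The genes and lists were chosen with earlier results of these data known. Values per library were given for called genes, for genes without overlap and with an unadjusted p of at most 0.05, for the most abundant gene and the gene of smallest p of each role, and as counts for genes below the filter. Up to 6 called genes in each direction were named from the wider list. Nr1d1, Rab5a, Rab5b, Ap2a2, the single markers, Fuz and Daglb, and the 7 ratios, were chosen after values were seen. One marker, and the marker sum that holds it, is not reported here.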

Additional observations from a re-analysis of the deposited data

How the results depend on the processing

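Of the 9 called uptake genes, Mrc1, Gas6, Anxa1, Dock2 and Cav1 were called under all 15 alternatives. The count was 16 with DESeq2 (886 of all genes), 11 with no filter (1528 of all genes), 10 with filterByExpr and 9 with library totals, DESeq2's size factors (Rac2 lost, Sort1 gained) or limma. Leaving out 1 library gave 6 to 10 called uptake genes (317 to 448 of all genes), fewest without Cre+ replicate 3. The wider list had 25 called with DESeq2, 24 with no filter and 5 to 11 when 1 library was left out. The median log2 fold change of the uptake genes was 0.0356 with no filter and -0.000198 with filterByExpr, where the median of all genes moved by 0.08 and 0.04, and -0.0559 to -0.0147 when 1 library was left out. The sign turned under at least 1 alternative for 13 tested uptake genes, none of them called by edgeR, most often for Elmo1 (5 alternatives), Stab1 (4) and Pros1 (3), and for Lrpap1 with no filter (0.0261). The causes were not tested. Deviations of same-numbered libraries correlated at 0.00667, -0.0334 and -0.0556, and those of other pairs at -0.0355 to 0.0698. No pairing by number was seen, and these values cannot show whether cultures shared a litter or preparation. With the replicate number as a block, 8 uptake genes and 430 of all genes were called, and Rac2 was lost (adjusted p = 0.091). Each group has 3 libraries, so the exact test of a single value cannot go below p = 0.1, and the intervals of low genes such as Sorl1 and Rab5a are wide.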
